A study of Mus musculus with 3 samples.

Results

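The genes of cyclic nucleotide signalling were taken from the count files by symbol, as 60 of the 32532 genes listed. They comprise 9 adenylyl cyclases (Adcy), 23 phosphodiesterases (Pde), 2 catalytic (Prkac) and 4 regulatory (Prkar) subunit genes of the cAMP-dependent kinase PKA, 16 A-kinase anchoring proteins (Akap), 4 subunit genes of soluble guanylyl cyclase (Gucy1) and 2 cGMP-dependent kinases (Prkg). Adcy5 and Pde10a were left out by the rule that chose the members. The rule used names only and no measured value.

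The libraries were made from RNA pulled down with tagged ribosomes of the cortex-amygdala transition zone (CxA), a region between cortex and amygdala. The mice were untreated adult controls of the line Lypd1-TRAP OI82, in which the ribosomal protein L10a is fused to EGFP and driven by Lypd1 regulatory DNA, so any cell type with transgene activity contributes. Polysomes were pulled down with anti-EGFP antibodies, and all 3 libraries, called replicates 1, 2 and 3, were the immunopurified fraction of 1 group. Unpurified tissue was not analysed here. The values are therefore levels in captured RNA, not enrichments, and fewer cells of a type cannot be told apart from less RNA per cell. RNA carried through the pull-down without a tagged ribosome cannot be told apart either. The series names 3 mice without tying each to 1 library, so every SD and p below measures the spread between libraries, which may be technical.

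As background, adenylyl cyclases make cAMP on the order of G proteins and, for some isoforms, of calcium and calmodulin, and soluble guanylyl cyclase makes cGMP in response to nitric oxide. PKA is held inactive by its regulatory subunits until cAMP binds them, AKAPs fix the enzyme to synapses, membranes, organelles or the nucleus, and phosphodiesterases break the messengers down. In forebrain neurons this pathway is known for its part in synaptic plasticity and in transcription through the factor CREB, which binds the DNA element TGACGTCA.

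Gene counts totalled 18526251, 24690301 and 8668527, and the members took 0.682%, 0.739% and 0.601% of them. Levels are CPM, a gene's counts scaled by its library's total of assigned counts, and comparisons between genes use CPM per kb of annotated exons. Values in a series are for replicates 1, 2 and 3 in that order, and means are given ± SD (n = 3). A count of 0 allows up to 0.162, 0.122 and 0.346 CPM, the level of 3 counts, which covers counting error only. Replicate 3 stood apart: 45.3% of its reads lay in no counted feature, against 31.4% and 25.6%, and the nuclear RNA Malat1 measured 34476, 14400 and 82537 CPM. All 8 neuronal markers on the list were detected, with summed levels of 11897, 17479 and 9369 CPM, lowest in replicate 3. The 8 markers of mural cells and fibroblasts summed to 170.2, 56.3 and 61.8 CPM.

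Transcripts of every family were present. Detection required a level of at least 1 CPM in every library, which 47 of 60 members (78.3%) reached, against 39.3% of all listed genes. Leaving out 1 library gave 47 to 49 detected members. All 6 PKA subunits, 17 of 23 phosphodiesterases, 12 of 16 AKAPs, 7 of 9 adenylyl cyclases, 3 of 4 guanylyl cyclase subunits and both cGMP-dependent kinases were detected. The mean level was 10 CPM or more for 42 members, all shown in the plot of levels by library.

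**Figure D1:**
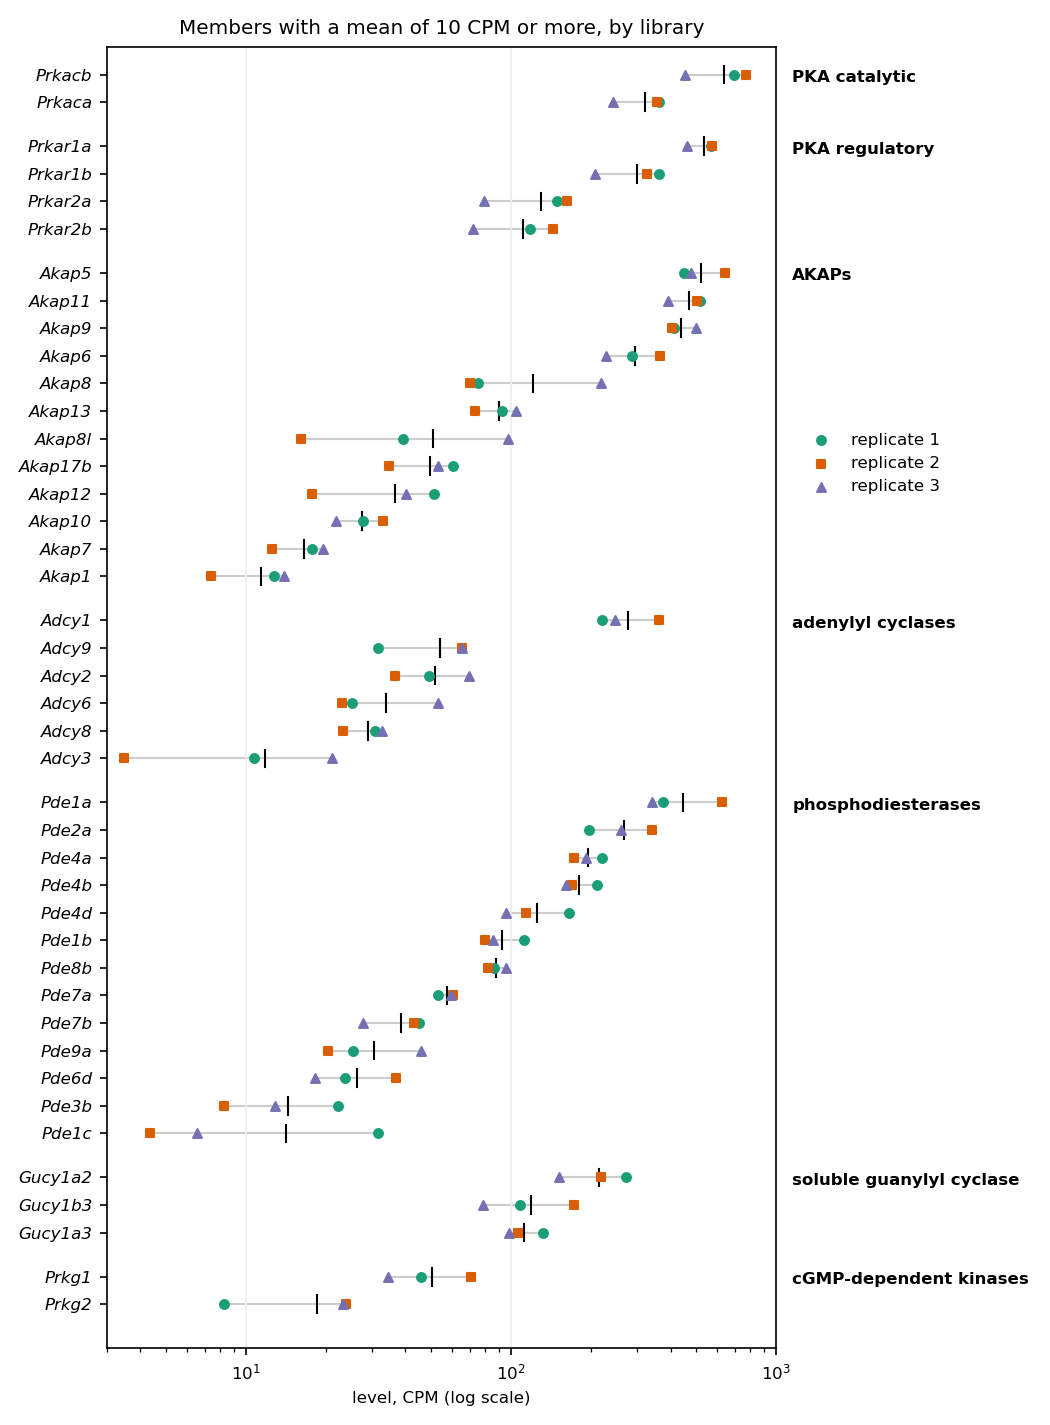
Level in CPM (log axis) of the 42 members with a mean of 10 CPM or more, grouped by family; symbols are the 3 libraries, black ticks the mean and grey lines the range. The PKA subunits sit lowest in replicate 3 throughout, and Akap8, Akap8l, Adcy3 and Pde1c have the wide ranges.

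The PKA catalytic subunits were among the most abundant members. Prkacb, encoding the beta catalytic subunit, measured 691, 768 and 454 CPM (637 ± 163). Prkaca, encoding the alpha subunit, measured 362, 354 and 243 CPM (319.6 ± 66.3). Both were lowest in replicate 3. In GRCm38, Prkacb lies on chromosome 3 (minus strand, 146729574 to 146812990) and Prkaca on chromosome 8 (plus strand, 83972993 to 83996443). Their exons, joined over all annotated transcripts, cover 8772 and 2488 bases, and their order depended on this length. Per kb of joined exons Prkaca was the higher at 128 ± 26.7 against 72.7 ± 18.6 CPM per kb, so Prkacb minus Prkaca was −0.83 ± 0.12 (log2), negative in 3 of 3 libraries. With the longest transcript as the length the difference was 0.050 ± 0.12, and without any length it was 0.98 ± 0.12. The order of the catalytic subunits was therefore set by the length chosen.

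Among the regulatory subunits, the type I genes exceeded the type II genes. Prkar1a, the RI-alpha subunit found in most tissues, measured 570, 572 and 460 CPM (534 ± 63.95). Prkar1b, the RI-beta subunit that is typical of neurons, measured 363, 326 and 208 CPM (299 ± 81.0). Prkar2a, encoding RII-alpha, measured 149, 162 and 79.1 CPM (130.1 ± 44.6), and Prkar2b, encoding RII-beta of forebrain neurons, 118, 144 and 72.1 CPM (111 ± 36.5). All 4 were lowest in replicate 3, as were both catalytic genes, also with TMM scaling and with DESeq2 size factors. Of all 15336 tested genes 27.5% were lowest in that library by library totals, 32.2% with TMM and 33.8% with DESeq2 size factors. The neuronal markers and the 7 G protein alpha genes, at 4309, 4792 and 3059 CPM in sum, were also lowest there, and their part in the PKA values was not tested.

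Per kb, the type I pair summed to 227, 218 and 161 and the type II pair to 55.6, 64.9 and 32.2 CPM per kb. Type I exceeded type II 4.09-fold, or by 2.03 ± 0.29 as a log2 difference, with 1 sign throughout. Within type I, Prkar1b minus Prkar1a was −0.69 ± 0.25, negative in 3 of 3 libraries, and −0.46 with the longest transcript as the length. Within type II, Prkar2b minus Prkar2a was 0.59 ± 0.11, positive in 3 of 3 libraries, but 0.34 with the longest transcript and −0.21 ± 0.11 without length correction. Prkar1a made up 49.5 ± 4.85% of the regulatory level per kb, Prkar1b 30.7 ± 2.77%, Prkar2b 11.9 ± 1.91% and Prkar2a 7.89 ± 1.32%. Regulatory and catalytic genes lay close together in sum. The regulatory sum was 283, 283 and 193 CPM per kb against 224, 229.9 and 149.5 for the catalytic one. The regulatory sum was the higher in each library, by 0.33 ± 0.04 (log2), or by 0.18 with the longest transcript and 0.17 without length correction. With joined exons as the length, each of these differences and Prkacb minus Prkaca exceeded its SD. An exact permutation test that flips signs, two-sided, cannot go below p = 0.25 with 3 libraries, and p was 0.25 for all 5 (0.278 after Benjamini-Hochberg adjustment over the 10 contrasts made).

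**Figure D2:**
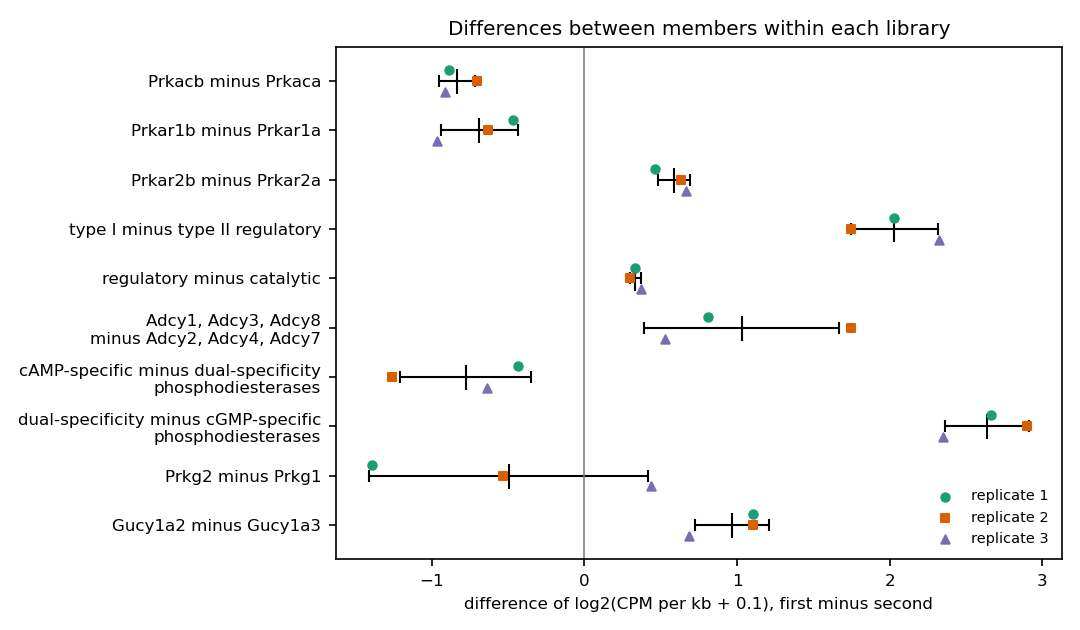
Differences of log2(CPM per kb + 0.1) between members or sums of members within each library; symbols are libraries, ticks the mean and bars ± SD (n = 3). In 9 of 10 contrasts the 3 libraries lie on the same side of 0, and Prkg2 minus Prkg1 crosses it.

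Promoter windows of 250 bases before to 50 after a start site, from RefSeq on GRCm38.p6, were found for 48 of 60 members. The full CREB element TGACGTCA, which reads the same on both strands, occurred in 2 of 91 member windows, overlapping windows of Prkar1a that hold the same copy. That is 2.2% of member windows, against 1.79% of all 32851 windows. The core TGACG, searched on both strands and contained in the full element, occurred in 22% of member windows and 20.8% of all windows. Both shares are near the background. The site in Prkar1a, the most abundant regulatory subunit gene, is shown with its flanks on the plus strand at chr11:109650892-109650915, outside the exons of GENCODE M21, with the element in capitals.
Prkar1a: aggcgcatTGACGTCAgcagccga

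The anchoring proteins were led by 4 genes. Akap5, the postsynaptic scaffold that binds PKA, protein kinase C and calcineurin, measured 448.5, 641 and 479 CPM (523 ± 103). Akap11, which binds PKA and glycogen synthase kinase 3, measured 515, 503 and 391 CPM (469 ± 68.3). Akap9, an anchor of the centrosome and Golgi, measured 412, 406 and 499 CPM (439 ± 52.2). Akap6, an anchor of the nuclear envelope, measured 287, 366 and 229 CPM (294 ± 68.6). Within each of these genes the highest library was less than 1.6 times the lowest: the ratio was 1.43 for Akap5, 1.32 for Akap11, 1.23 for Akap9 and 1.597 for Akap6.

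Per kb, Akap5 took 35.97 ± 6.47% of the AKAP level and Akap11 20.1 ± 3.65%. Akap9 and Akap6 took 9.65 ± 0.91% and 9.32 ± 2.21%, since their joined exons cover 21350 and 14848 bases against 6824 for Akap5. Akap5 lay on average at the 97.7th percentile of the 11732 detected protein-coding genes with a length.

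Other anchors were lower. Akap13 measured 92.5, 73.5 and 104 CPM (90.1 ± 15.6). Akap17b, an X-linked gene, measured 60.6, 34.6 and 53.3 CPM (49.5 ± 13.4). Akap12, the scaffold also called gravin, measured 51.4, 17.7 and 40.1 CPM (36.4 ± 17.1). These were lowest in replicate 2, as were 37.8% of all tested genes by library totals. Akap10, an anchor that binds both regulatory types, measured 27.7, 32.8 and 21.9 CPM (27.5 ± 5.47). Akap7, an anchor of the plasma membrane, measured 17.7, 12.6 and 19.5 CPM (16.6 ± 3.58), and Akap1, an anchor of the outer mitochondrial membrane, 12.8, 7.37 and 13.96 CPM (11.4 ± 3.52).

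The nuclear anchor Akap8 and its neighbour and paralog Akap8l were uneven between the libraries. Akap8 measured 75.4, 70.4 and 219 CPM (122 ± 84.5), so replicate 3 was 3.11 times the lowest library while the other two lay together. Akap8l measured 39.3, 16.2 and 97.2 CPM (50.9 ± 41.8), highest in replicate 3 at 6.02 times the lowest. Without replicate 3 the mean of Akap8 was 72.9 CPM and that of Akap8l 27.7 CPM. Malat1 was highest in the same library. So was the sum of the 6 markers of ependymal cells and choroid plexus, at 48.7, 46.3 and 106 CPM with 3 of 6 detected. Among them was Ttr at 1.35, 3.97 and 54.6 CPM (called as varying, adjusted p = 0.0017 in edgeR's goodness-of-fit test). The single markers did not all share this order. Kl was highest in replicate 1 at 30.5 CPM and Prlr in replicate 2 at 36.5 CPM. Kcnj13, Foxj1 and Folr1 were highest in replicate 3, at 13.2, 2.31 and 0.577 CPM. The part of these RNAs in the Akap8 and Akap8l values was not tested. The genes lie head to tail on the minus strand of chromosome 17, Akap8 at 32303672 to 32321238 and Akap8l at 32321424 to 32350607. The 185 bases between them, at chr17:32321239-32321423 of GRCm38.p6 on the minus strand, hold no annotated exon. They have 65.4% G and C and 21 CpG pairs, and lie upstream of Akap8 and past the end of Akap8l. They were picked because the 2 genes were highest in replicate 3, as were 39.2% of all tested genes by library totals. A part of this stretch in the levels was not tested. CpG pairs are in capitals.
Akap8 upstream: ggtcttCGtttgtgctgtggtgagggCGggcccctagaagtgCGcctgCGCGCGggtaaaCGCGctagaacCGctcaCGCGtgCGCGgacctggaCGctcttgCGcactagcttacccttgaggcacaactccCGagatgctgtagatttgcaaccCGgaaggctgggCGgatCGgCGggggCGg

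Among the adenylyl cyclase members, which leave out Adcy5, a single isoform led, and the shares below are of these members. Adcy1, which is stimulated by calcium and calmodulin and known from synaptic plasticity, measured 220.1, 361 and 247 CPM (276 ± 74.9), and it made up 39.1 ± 10.3% of the cyclase level per kb. Without length correction the cyclase members summed to 379, 519 and 510 CPM, so its share was larger. Adcy2, which is stimulated by G protein beta-gamma subunits, measured 49.1, 36.7 and 69.7 CPM (51.8 ± 16.7) and took 21.7 ± 5.71%. Adcy9, a widespread isoform with little response to forskolin, measured 31.6, 65.2 and 65.5 CPM (54.1 ± 19.5) and took 17.9 ± 4.34%. Adcy6, which is inhibited by calcium, measured 25.2, 23.1 and 53.3 CPM (33.9 ± 16.9). Adcy8, also a calmodulin-stimulated isoform of the brain, measured 30.6, 23.3 and 32.5 CPM (28.8 ± 4.85).

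Adcy3, the cyclase of neuronal primary cilia and olfactory neurons, was uneven at 10.7, 3.48 and 21.2 CPM (11.8 ± 8.92), lowest in replicate 2, with a mean of 7.11 CPM without replicate 3. Its exons share 22.1% of their bases with Cenpo on the opposite strand, and the strand setting of the counts was not given. Adcy7 averaged 8.71 ± 3.71 CPM. The soluble cyclase Adcy10 measured 2.38, 0.972 and 7.15 CPM and was not detected in replicate 2, and Adcy4 measured 1.03, 0.081 and 1.27 CPM. Of the 8 tested cyclases 6 were lowest in replicate 2, against 37.8% of all tested genes. With TMM scaling and DESeq2 size factors it was again 6 of 8, against 34.1% and 33.6%. With library totals 7 of 8 were highest in replicate 3, against 39.2% of all tested genes. With TMM it was 5 of 8 against 34.3%, and with DESeq2 size factors 5 of 8 against 32.8%.

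Adcy1, Adcy3 and Adcy8, grouped here as calcium-stimulated, summed to 23.0, 32.2 and 27.1 CPM per kb, and Adcy2, Adcy4 and Adcy7 to 13.1, 9.53 and 18.7. Adcy1 alone gave 17.6, 28.8 and 19.7 CPM per kb of the first sum. The first group was higher in each library, by 1.03 ± 0.64 (log2; exact permutation p = 0.25, adjusted p = 0.278). Replicate 2 gave 1.75, against 0.81 and 0.53 in replicates 1 and 3, and without it the difference was 0.67 ± 0.20. Without length correction it was 2.40 ± 0.71.

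Among the phosphodiesterase members, which leave out Pde10a, genes of families 1, 2 and 4 led, and the shares below are of these members. Pde1a, a calmodulin-activated enzyme that hydrolyses both messengers, measured 376, 625 and 341 CPM (447 ± 155). Pde2a, a dual-specificity enzyme stimulated by cGMP, measured 198, 341 and 261 CPM (266 ± 71.6). Both were highest in replicate 2, as were 29.2% of all tested genes by library totals. Pde1a took 30.5 ± 6.45% of the phosphodiesterase level per kb and Pde2a 17.96 ± 3.38%.

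The cAMP-specific family 4, the targets of rolipram, had 3 detected genes. Pde4a measured 220.4, 173 and 191 CPM (195 ± 24.1), Pde4b 211, 171 and 161 CPM (181 ± 26.8) and Pde4d 165, 114 and 95.6 CPM (125 ± 35.9). Each was highest in replicate 1, as were 31.6% of all tested genes by library totals. Pde4c was near the floor, with 0, 2 and 6 counts.

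Pde1b, known from striatal neurons, measured 112, 79.9 and 85.8 CPM (92.7 ± 17.3). Pde8b, a cAMP-specific enzyme insensitive to the common inhibitor IBMX, measured 86.1, 82.0 and 96.2 CPM (88.1 ± 7.30), and Pde7a, another cAMP-specific enzyme, 53.1, 60.3 and 59.4 CPM (57.6 ± 3.94). These last 2 were among the most even members, with a highest library 1.17 and 1.14 times the lowest. Pde7b measured 44.96, 42.97 and 27.7 CPM (38.5 ± 9.45). The cGMP-specific Pde9a measured 25.3, 20.5 and 45.9 CPM (30.6 ± 13.5).

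Pde6d, which despite its name encodes a chaperone of prenylated proteins, measured 23.8, 36.9 and 18.2 CPM (26.3 ± 9.61). Pde3b, a cAMP enzyme inhibited by cGMP, measured 22.2, 8.26 and 12.9 CPM (14.5 ± 7.12). Pde5a, Pde11a, Pde3a and Pde8a were detected with means of 6.83 ± 1.46, 4.37 ± 2.49, 3.86 ± 1.67 and 3.83 ± 2.07 CPM.

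Among phosphodiesterases with a mean of 10 CPM or more, Pde1c had the widest ratio of highest to lowest library. It measured 31.5, 4.37 and 6.58 CPM (14.2 ± 15.1), so replicate 1 was 7.21 times replicate 2 and replicates 2 and 3 lay together. Without replicate 1 its mean was 5.47 CPM. The summed markers of several other cell types were highest in the same library, though not every single marker was. Markers of mural cells and fibroblasts summed highest in replicate 1, as given above, with 6 of 8 detected and none at 0 in every library. The 8 astrocyte markers, all detected, summed to 2252, 1366 and 1340 CPM, and the 8 oligodendrocyte markers, 7 of them detected, to 404, 243 and 236 CPM. The cholinergic markers Chat, Slc5a7 and Slc18a3 summed to 46.9, 0.81 and 2.65 CPM, with 0 of 3 detected in all libraries and Chat called as varying (adjusted p = 0.035, edgeR goodness-of-fit test). Their part in the Pde1c values was not tested.

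**Figure D3:**
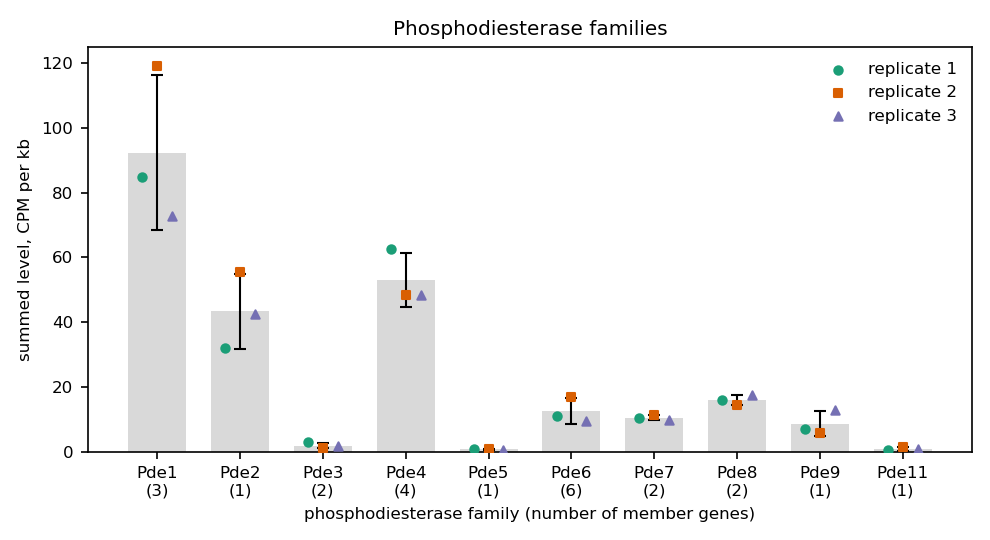
Summed level in CPM per kb of each phosphodiesterase family, with the number of member genes in brackets; bars are means, error bars ± SD (n = 3) and symbols the 3 libraries. Families 1, 4 and 2 are the tallest, at 92.2, 53.0 and 43.3 CPM per kb, and families 3, 5 and 11 are near 0. Without length correction family 1 summed to 519, 709 and 433 CPM and family 4 to 597, 457 and 449 CPM. Their order then differed between libraries.

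By substrate, and without Pde10a, the dual-specificity families 1, 2, 3 and 11 summed to 120.3, 177 and 118 CPM per kb. The cAMP-specific families 4, 7 and 8 summed to 89.1, 73.8 and 75.6 CPM per kb. The cAMP-specific minus dual-specificity log2 difference was −0.78 ± 0.43, negative in 3 of 3 libraries. It was −1.26 in replicate 2 and −0.54 ± 0.15 without it. With the longest transcript as the length it was −0.34 ± 0.44 and without length correction −0.27 ± 0.41, both smaller than the SD. The cGMP-specific families 5, 6 and 9 summed to 18.9, 23.6 and 23.0 CPM per kb, and the dual-specificity sum exceeded them by 2.64 ± 0.28 (log2), positive in 3 of 3 libraries. Of the mean cGMP-specific sum of 21.8, Pde6d made up 12.1 ± 4.41 CPM per kb, and without it the difference was 3.87 ± 0.86. Without length correction the difference with Pde6d was 3.67 ± 0.38. In the exact permutation test p was 0.25 for both differences, or 0.278 adjusted.

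The cGMP arm was present with both of its enzymes. Gucy1a2, the alpha-2 subunit of soluble guanylyl cyclase, measured 271, 219 and 152 CPM (214 ± 59.9). Gucy1a3, the alpha-1 subunit, called Gucy1a1 in current annotation, measured 132, 106 and 98.3 CPM (112 ± 17.5). Gucy1b3, the obligatory beta-1 subunit, now Gucy1b1, measured 108, 172 and 78.4 CPM (119.5 ± 48.01). All 3 were lowest in replicate 3 under each scaling. Of all tested genes 27.5% were lowest there by library totals, 32.2% with TMM and 33.8% with DESeq2 size factors. The sums of the neuronal markers and of the G protein alpha genes were also lowest there, and their part in these values was not tested. Per kb, Gucy1a2 was the higher alpha gene in each library, by 0.97 ± 0.24 (log2; exact permutation p = 0.25, adjusted p = 0.278). Gucy1b2 had 5 counts in replicate 3 and 0 in the others.

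The kinases of this arm were far lower than PKA. Prkg1, the kinase of smooth muscle and some neurons, measured 45.9, 70.7 and 34.5 CPM (50.3 ± 18.5) and Prkg2, the membrane-bound form, 8.31, 23.9 and 23.3 CPM (18.5 ± 8.84). Per kb they summed to 8.08 ± 2.64, against 201 ± 44.8 CPM per kb for the PKA catalytic genes. Prkg2 minus Prkg1 was −0.50 ± 0.92 on the log2 scale, with −1.39, −0.54 and 0.44 in the libraries, so the sign was not shared and the mean was smaller than its SD (exact permutation p = 0.5, adjusted p = 0.5). Without replicate 1 it was −0.05 ± 0.69, without replicate 3 −0.96 ± 0.61, with the longest transcript as the length −1.01 ± 0.92, and without length correction −1.52 ± 0.94.

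Of the 13 members that were not detected, several are known from retina or sperm. The photoreceptor genes Pde6a, Pde6b, Pde6c, Pde6g and Pde6h were at or below 0.923 CPM in each library, except Pde6a at 2.88 CPM in replicate 3. The sperm anchors Akap3 and Akap4 had 0 to 5 counts, and Akap4 and Pde6g were at 0 in every library. Akap14 had 7, 0 and 5 counts. Akap2 had 3, 0 and 6 counts, but 84.4% of its annotated exon bases also belong to the listed gene Pakap, which had 0, 0 and 57 counts, and how reads in shared exons were counted was not given. The rest are Pde4c, Gucy1b2, Adcy4 and Adcy10, given above. Just inside the limit, Pde8a measured 1.62 CPM in replicate 2 and Pde11a 1.997 in replicate 1, and just outside it Adcy10 measured 0.972 in replicate 2.

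Whether a member's spread exceeded that of genes of like abundance was asked of the 15336 genes whose mean reached 1 CPM, using the goodness-of-fit test of edgeR on TMM-scaled counts with a trended dispersion. Of 49 members tested 0 were called as varying at an adjusted p under 0.05, against 0.209% of all tested genes (32 genes). At an unadjusted p under 0.05 it was 3 members, or 6.12%, against 7.82% of all tested genes. These were Akap8l, Pde1c and Akap8, with adjusted p = 0.334, 0.470 and 0.591 in edgeR's test, so none passed the adjustment. Without replicate 3 the adjusted p of Akap8l was 0.952 and that of Akap8 0.9997 (edgeR), and without replicate 1 that of Pde1c was 0.979. With the dispersion trend of DESeq2 the count was also 0, and again 3 at an unadjusted p under 0.05. The median SD of log2(TMM-scaled CPM + 1) was 0.47 over the 49 members and 0.55 over all tested genes, and 0.43 against 0.46 where the mean reached 10 CPM. By library totals, the 49 members were highest in replicates 1, 2 and 3 in 16, 17 and 16 cases, against 31.6%, 29.2% and 39.2% of all tested genes. They were lowest there in 7, 23 and 19 cases, against 34.7%, 37.8% and 27.5%. The order of replicates 2 and 3 depended on the scaling. With TMM the members were lowest in 7, 19 and 23 cases, against 33.7%, 34.1% and 32.2%. DESeq2 size factors gave the same 7, 19 and 23 cases, against 32.7%, 33.6% and 33.8%. The highest cases became 15, 20 and 14 with TMM, against 32.2%, 33.6% and 34.3%. With DESeq2 size factors they were 17, 20 and 12, against 33.3%, 33.9% and 32.8%.

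**Figure D4:**
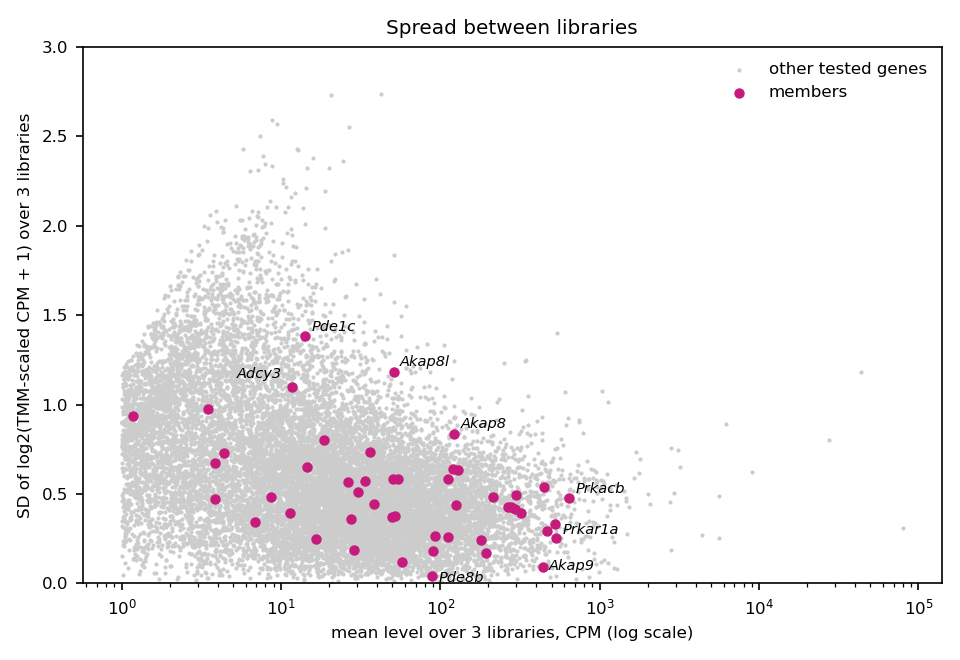
SD over the 3 libraries of log2(TMM-scaled CPM + 1) against mean CPM (log axis) for the 49 tested members (colour) and the other tested genes (grey). Most members lie within the grey cloud, with Pde1c, Akap8l and Akap8 towards its upper edge and Akap9 and Pde8b near 0.

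**Figure D5:**
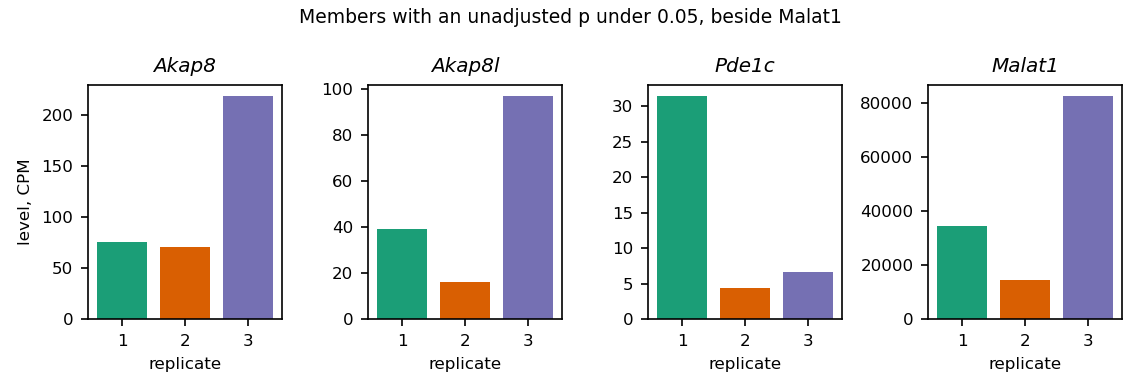
Level in CPM of the 3 members with an unadjusted p under 0.05 and of Malat1, 1 bar per library, each panel with its own axis from 0. Akap8, Akap8l and Malat1 are highest in replicate 3, at 219, 97.2 and 82537 CPM, and Pde1c is highest in replicate 1, at 31.5 CPM.

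Pathway genes outside the members are read against the shares over all genes, 39.3% detected, 0.209% called as varying and 7.82% at an unadjusted p under 0.05. Of 14 cAMP effectors and PKA modulators 14 were detected and 0 of 14 were called as varying, 2 at an unadjusted p under 0.05 (edgeR). The highest were Arpp21, a cAMP-regulated phosphoprotein, at 636 ± 171 CPM, the PKA inhibitor Pkia at 287 ± 74.2 CPM and Arpp19, an inhibitor of protein phosphatase 2A, at 204 ± 73.8 CPM. All 7 G protein alpha genes were detected and 0 were called (0 at an unadjusted p under 0.05), led by Gnao1 at 1518 ± 342 CPM, the stimulatory Gnas at 1457 ± 397 CPM and Gnai1 at 409 ± 111 CPM. Of 20 further cGMP genes 7 were detected, a share near that over all genes, and 0 of the 11 tested were called (0 at an unadjusted p under 0.05). They were led by Nos1, the neuronal nitric oxide synthase, at 46.2, 58.4 and 67.4 CPM, the natriuretic peptide receptor Npr2 at 49.1, 20.9 and 61.3 CPM and Gucy2e, a retinal guanylyl cyclase, at 9.37 ± 3.91 CPM.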

How the data were processed

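RNA pulled down with polysomes was sequenced in 3 immunopurified libraries. The deposited values are whole-number counts of reads per gene symbol, made with STAR 2.0.0e on mm10 and HTSeq, per the submitters' processing notes. Gene annotation, strand setting and library kit are not given in the sources used here. HTSeq's 5 summary classes were left out. Reads aligning to several places form one of these classes, so paralogs with shared sequence can be undercounted.

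CPM uses the total assigned to genes. Per-kb values use joined GENCODE M21 exons (GRCm38, the assembly named mm10); lengths were found for 60 of 60 members and 73.3% of listed genes, and 2 members were matched by older symbols. Contrasts are log2(CPM per kb + 0.1) differences within libraries, tested by exact permutation of their signs (two-sided), with Benjamini-Hochberg adjustment over 10 contrasts. Variation used edgeR 4.0.16 in R 4.3.3 (intercept-only fit, TMM, trended dispersion, upper chi-square tail on 2 degrees of freedom, threshold 0.05), since 1 group gives no contrast for a quasi-likelihood test. It was tested on simulated data. With so few libraries it can miss large differences, so a member not called may still vary. Alternatives covered scaling, including DESeq2 1.42.0, filters, dispersion, length, pseudocount, detection threshold and each library left out. TMM moved log2 levels by at most 0.085. No 2 libraries agree within sampling noise (chi-square per degree of freedom 97.7 to 187).

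Named with values per library were members with a mean of 10 CPM or more, the highest of each family and those in contrasts, and the 3 highest genes of each pathway list. Others were named after their values were seen. The members, lists and tests were chosen with earlier results of these data known. Other steps used Python 3.11.15.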

Additional observations from a re-analysis of the deposited data

How the results depend on the processing

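The count of detected members was 48 at 0.5 CPM, 42 at 5 CPM and 48 with TMM scaling. No member was called as varying under any of the 9 alternatives run. The smallest adjusted p of any member over the alternatives was 0.075, for Pde6a with a common dispersion, and otherwise 0.248 for Akap8l with library totals. Over all genes the count of 32 became 780 with a common dispersion, and 5 to 22 with 1 library left out (8 without replicate 1, 5 without replicate 2, 22 without replicate 3). The cause was not tested. Of 61 alternative values of the 10 contrasts 58 kept their sign. The exceptions were Prkacb minus Prkaca at 0.050 with the longest transcript and 0.98 without length correction, and Prkar2b minus Prkar2a at −0.21 without length correction, where the length itself makes the change. Among the 42 members with a mean of 10 CPM or more, leaving out 1 library moved 4 means by over 1.5 times. Pde1c went from 14.2 to 5.47 CPM without replicate 1, and without replicate 3 Akap8 went from 122 to 72.9, Akap8l from 50.9 to 27.7 and Adcy3 from 11.8 to 7.11 CPM. TMM for levels and the sum without Pde6d were chosen after seeing the data. No paired analysis was possible because the series has 1 group. Replicate 3 had the least depth, and members under 1 CPM rest on few reads there.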

Other observations

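Members below the detection limit mostly had their highest CPM in the shallowest library. Their counts did not all follow, as Adcy4 had 19, 2 and 11 and Akap14 had 7, 0 and 5. Of 11 undetected members with any count, 10 were highest in replicate 3 on the CPM scale, against 59.99% of the 8012 undetected genes with counts in the whole table. In replicate 3 only 3 of 60 members were at 0, against 8 and 7 in replicates 1 and 2, and 19673 genes had a count, against 17196 and 17907, although it held the fewest assigned counts.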
